A study of Mus musculus with 6 samples.

Results

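The genes described here are the 10 named members of the Myc, Max and Mxd network: Myc, Mycn, Mycl, Max, Mxd1, Mxd3, Mxd4, Mxi1, Mnt and Mlx. They were chosen by name, and all 10 were found by Ensembl identifier among the 56393 genes of the deposited table. Their transcripts were measured by RNA sequencing. The labels call the cells VSMC, primary vascular smooth muscle cells of the mouse, which are the contractile cells of the artery wall. In 3 libraries the genotype was Nono knockout (KO) and in 3 it was wild type (WT). The Nono protein binds RNA and DNA and belongs to nuclear bodies called paraspeckles, and the series asks which genes differ when it is lost. All cells grew in serum-containing medium and received no further treatment. The labels give neither strain, age and method of knockout nor whether the KO cells were a single clone, and they do not say whether replicates were separate cultures, so the p-values rest on the spread among 3 libraries per group, which may be technical.

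Myc is a basic helix-loop-helix leucine zipper transcription factor that binds the E-box sequence CACGTG as a dimer with Max and raises transcription of genes for ribosome production, nucleotide synthesis and cell growth. Mycn and Mycl are its paralogs. Mxd1, Mxd3, Mxd4, Mxi1 and Mnt also bind E-boxes as dimers with Max, but recruit Sin3 and histone deacetylases and lower transcription. The Myc and Mxd proteins thus compete for the same partner and sites. Mlx is a second shared partner, used by the glucose-sensing Mondo proteins (Mlxip and Mlxipl) and by some Mxd proteins. In smooth muscle, Myc is known as a serum- and growth-factor-induced gene of proliferating cells.

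Library totals ranged from 56529170 to 61670083 counts. Levels are given as CPM, counts scaled to library size with TMM factors, with mean ± SD over 3 libraries, and were compared with the quasi-likelihood test of edgeR, adjusted over all 18732 genes that passed the filter on low counts. Nono itself was at 502 to 523 CPM in the WT libraries and at 51.1 to 55.97 CPM in the KO libraries. KO and WT differed over much of the transcriptome: 69.3% of the tested genes were called at an adjusted p of 0.05 (35.1% with more transcript in KO and 34.2% with less). Over all tested genes, the median log2 fold change was 0.0313 with TMM and -0.0992 with scaling by total counts. Unless another setting is named, fold changes below are as fitted with TMM, and these medians were not subtracted. The defining smooth muscle genes Myh11, Tagln and Cnn1 lay under 1 CPM in WT (0.467, 0.859 and 0.0212 CPM), while Acta2 was at 16.4 CPM, so these markers alone do not identify the cells. In KO, Acta2 was at 161 CPM, Tagln at 15.0, Cnn1 at 3.49 and Myh11 at 0.219 CPM. Of 8 smooth muscle markers 5 were higher and 2 lower in KO, and their sum was 67.4 to 76.5 CPM in WT and 244.7 to 249.0 CPM in KO. Of 8 fibroblast markers 6 were higher and 1 lower in KO, and their summed level was 992 to 1136 CPM in WT and 10678 to 11556 CPM in KO, with Lum at 0 counts in WT. The 4 Y-linked genes examined summed to between 0 and 0.0795 CPM in WT and to between 149.9 and 163.3 CPM in KO. Of these, 3 had 0 counts in all WT libraries, so the groups also differed in transcripts of the Y chromosome. The 8 macrophage and leukocyte markers summed to 61.7 to 73.8 CPM in WT and 7.35 to 8.98 CPM in KO, and of these Ptprc, Adgre1, Itgam and Tyrobp were at 0 counts in all libraries. The other 4 were split: Cd74 (56.9 CPM in WT, 2.39 CPM in KO) and Lyz2 were lower in KO, while Csf1r (0.157 and 3.29 CPM) and Cd68 (1.08 and 2.23 CPM) were higher. Summed epithelial and mesothelial markers were at 77.0 to 84.8 CPM in WT and 9.87 to 13.4 CPM in KO, with Epcam and Krt18 at 0 counts throughout. Of the 4 tested, Krt19 and Msln were lower in KO, and Wt1 (0.0545 and 2.03 CPM) and Cdh1 (0.152 and 0.927 CPM) were higher. Endothelial markers summed to under 4 CPM in every library. These differences separated the same libraries as the genotype. Their part in the results below was not tested, and in this design it cannot be told apart from that of the genotype. In bulk RNA, fewer cells of a type and less RNA per cell cannot be told apart.

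The E-box letters were looked for in the members' own promoters, because several of these genes lie within the network they regulate. RefSeq promoter entries (build GRCm38.p6, 250 bases before to 50 bases after the gene's start) were matched by symbol for 9 of the 10 members. CACGTG, which reads the same on both strands, occurred in the entries of 4 of these 9 genes (Max, Mxd4, Mnt and Mlx). It occurred in 8.09% of the 27025 genes with an entry and in 11.1% of the 11765 tested genes with one. The deposited counts were made on build GRCm39, so these coordinates are used for the sequences alone. The 250 bases before the start are shown for Mxd4 and Mxd1, which had the largest increases among the 9 members that passed the low-count filter, with the E-box in capitals. The windows of 30 bases around the motif follow for the other members that hold it.
Mxd4, chr5:34187711-34187960, minus strand: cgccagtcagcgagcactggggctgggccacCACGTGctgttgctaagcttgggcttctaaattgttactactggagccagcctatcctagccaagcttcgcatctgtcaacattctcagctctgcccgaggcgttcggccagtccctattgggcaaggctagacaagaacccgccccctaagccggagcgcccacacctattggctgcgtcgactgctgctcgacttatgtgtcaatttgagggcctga
Mxd1, chr6:86669160-86669409, minus strand: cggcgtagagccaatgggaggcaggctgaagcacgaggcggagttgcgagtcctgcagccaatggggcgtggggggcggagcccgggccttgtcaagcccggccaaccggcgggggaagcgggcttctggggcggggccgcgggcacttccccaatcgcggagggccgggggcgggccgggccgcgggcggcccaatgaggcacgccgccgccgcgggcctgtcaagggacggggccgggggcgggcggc
Max, chr12:76962234-76962263, minus strand: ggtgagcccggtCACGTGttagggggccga
Mnt, chr11:74830789-74830818, plus strand: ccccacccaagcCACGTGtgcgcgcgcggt
Mlx, chr11:101087238-101087267, plus strand: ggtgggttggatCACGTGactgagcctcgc
The motif began 219 bases before the start in Mxd4, 123 in Mnt, 40 in Mlx and 3 in Max. The Mxd4 stretch is 58.0% G and C and the Mxd1 stretch, which holds no CACGTG, 78.4%. Of the 4 genes with the motif, Max, Mxd4 and Mnt were higher and Mlx lower in KO (values below). Over all tested genes, 35.1% were higher and 34.2% lower. A match of these letters is a description and does not show that any factor binds there.

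Of the 10 members, 9 passed the filter on low counts, and 4 of these were higher in KO (Max, Mxd1, Mxd4, Mnt), 3 were lower (Myc, Mycl, Mlx) and 2 did not pass the test (Mxd3, Mxi1). That is 7 of 9, beside 69.3% of all tested genes, so the number of members called is close to the background. The median log2 fold change of the 9 was -0.02, beside 0.03 over all tested genes. By role, both tested Myc activators were lower, 3 of the 5 Max-binding repressors were higher, and 0 of the 5 were called lower by edgeR or any alternative run (0 at an unadjusted p of 0.05). Over all tested genes, 34.2% were called lower and 35.1% higher by edgeR. In 7 of the 9 the KO and WT libraries had ranges that did not overlap, where the share over all tested genes was 75.5%.

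Myc, the founding activator, was at 230.3, 192 and 213 CPM in the WT libraries and at 26.5, 22.4 and 22.5 CPM in the KO libraries. Every KO library thus lay below the lowest WT library, and no value of either group came near the other. The means were 212 ± 19.0 CPM in WT and 23.8 ± 2.32 CPM in KO (SD over 3 libraries each), an 8.899-fold difference (edgeR log2 fold change -3.15 ± 0.10 SE, adjusted p = 3.17e-08). At least 4-fold lower calls made up 9.74% of the tested genes, and 5.29% of the tested genes had a larger decrease than Myc. Mycl, the paralog first found in lung cancer, was at 10.7, 11.1 and 9.99 CPM in WT and at 1.86, 2.27 and 2.56 CPM in KO. Its groups were as clearly separate as those of Myc, at a level over an order of magnitude lower. The difference was 4.75-fold (edgeR log2 fold change -2.25 ± 0.16 SE, adjusted p = 4.02e-06).

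Mycn, the paralog of embryonic and neural tissue, was near the limit of detection. It had 0 counts in each WT library and 8, 4 and 9 counts in the KO libraries, a total of 21. That is 0.122 CPM over the KO group (95% Poisson interval of the count 12.999 to 32.1). This value, with no allowance for that interval, was 7.54-fold a floor of 3 counts over the WT group. Floors and intervals cover counting error only. Mycn did not pass the low-count filter. Without the filter its edgeR adjusted p was 0.0389. Per transcript length, Mycn in KO (0.0356 ± 0.0112 deposited FPKM, SD, n = 3) stood below Mycl (0.57) and Myc (11.3).

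Max, the shared partner of the Myc and Mxd proteins, was at 61.5, 49.4 and 62.5 CPM in WT. In KO it was at 84.9, 84.3 and 65.9 CPM. The highest WT library lay only just under the lowest KO library. The difference was 1.36-fold (edgeR log2 fold change 0.44 ± 0.13 SE, adjusted p = 0.0146). Without KO replicate 1 the call was lost (edgeR log2 fold change 0.38, adjusted p = 0.0534), as it was without KO replicate 2 (0.39, adjusted p = 0.0502).

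**Figure D1:**
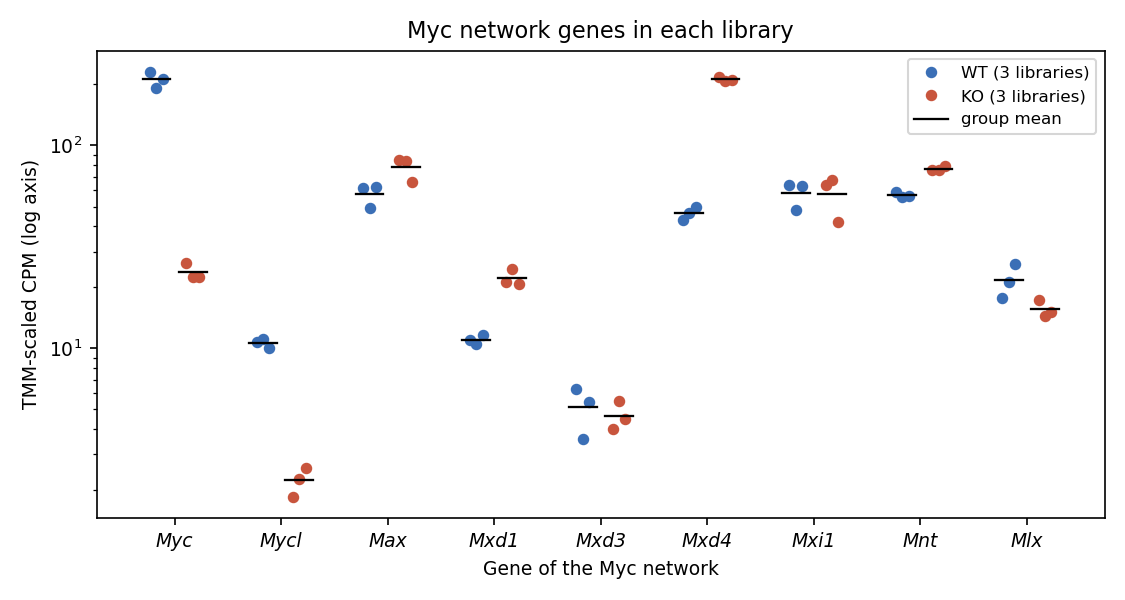
TMM-scaled CPM (log axis) of 9 members in each of the 3 WT and 3 KO libraries; points are libraries and bars are group means. Mycn is left out because it was at 0 in WT. Myc and Mycl lie lower and Mxd4 and Mxd1 higher in all KO libraries, while the Mxd3 and Mxi1 points of the groups overlap.

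The Max-binding repressors did not move as a block. Mxd4 (also called Mad4), a repressor linked to cells leaving the cycle, was at 42.9, 46.4 and 49.8 CPM in WT and at 218, 208 and 211 CPM in KO. All KO libraries lay within a narrow band far above WT. The means were 46.3 ± 3.49 and 212.6 ± 5.13 CPM (SD, n = 3 each), a 4.59-fold difference (edgeR log2 fold change 2.20 ± 0.06 SE, adjusted p = 2.60e-08). At least 4-fold higher calls made up 11.7% of the tested genes. An annotated antisense gene, Gm42846, shares 514 exon bases with Mxd4, and it had 4 counts in WT and 37 in KO, beside 8617 and 36702 for Mxd4.

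Mxd1 (Mad1), the repressor induced as many cell types differentiate, was at 11.01, 10.5 and 11.7 CPM in WT and at 21.1, 24.6 and 20.8 CPM in KO. Its groups were separate, with a 2.01-fold difference (edgeR log2 fold change 1.01 ± 0.10 SE, adjusted p = 4.09e-05). Mnt, the most broadly expressed of the Max-binding repressors, was at 59.2, 55.7 and 56.3 CPM in WT and at 76.04, 75.9 and 79.1 CPM in KO. The rise was small and the spread smaller still (1.35-fold, edgeR log2 fold change 0.43 ± 0.05 SE, adjusted p = 0.000124). With scaling by total counts the log2 fold change was 0.30 for Mnt and 0.31 for Max, and both kept their call.

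Mxi1 (Mad2) and Mxd3 did not pass the test. Mxi1 was at 63.9, 48.1 and 63.5 CPM in WT and at 64.1, 67.4 and 41.7 CPM in KO, so that the lowest library of all 6 was a KO library and the highest was too. Its log2 fold change was -0.02 ± 0.20 SE (edgeR adjusted p = 0.943), and its sign turned in 4 of 14 alternatives. WT replicate 2 and KO replicate 3 were the lowest of their groups both for Mxi1 and for Max. Mxd3, known for its expression in S phase, was at 6.31, 3.58 and 5.45 CPM in WT and at 4.02, 5.49 and 4.46 CPM in KO. The values interleave (edgeR log2 fold change -0.14 ± 0.24 SE, adjusted p = 0.629). It shares 105 exon bases with Prelid1 on the opposite strand, a gene with 27126 counts in WT and 50157 in KO. Mxd3 itself had 956 and 801 counts. Since the strand setting of the counting is not given, reads from that stretch may not be separable.

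Mlx was at 17.7, 21.2 and 25.97 CPM in WT and at 17.3, 14.5 and 15.1 CPM in KO. Its groups were separated only by the gap between the lowest WT and the highest KO library, both replicate 1. The difference was 1.39-fold (edgeR log2 fold change -0.47 ± 0.15 SE, adjusted p = 0.0208). The call was lost without WT replicate 3 (edgeR log2 fold change -0.31, adjusted p = 0.0740), without KO replicate 2 (-0.42, adjusted p = 0.0710) and without KO replicate 3 (-0.44, adjusted p = 0.0624). Mlx also shares 385 exon bases with Psmc3ip on the opposite strand, which fell from 3966 to 678 counts in total, and since the strand setting of the counting is not given, reads from that stretch may not be separable.

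**Figure D2:**
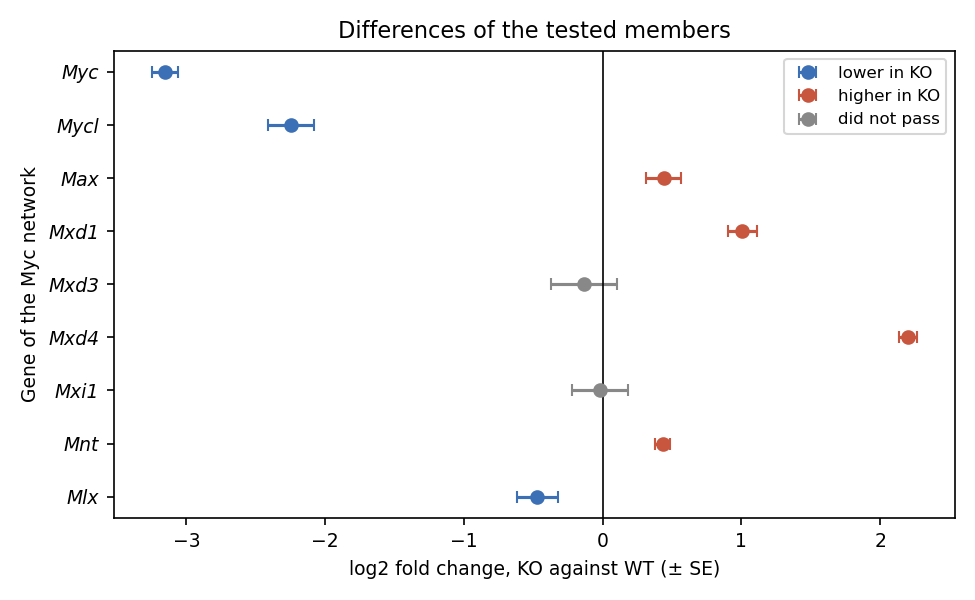
Log2 fold change of KO against WT with its SE (edgeR, 3 libraries per group) for the 9 tested members; the colour gives the call at an adjusted p of 0.05. Myc at -3.15 and Mxd4 at 2.20 mark the ends, and the bars of Mxd3 and Mxi1 cross 0.

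Levels of different genes were compared per transcript length, with the deposited FPKM (fragments scaled to gene length and library size). In WT, Myc was the most abundant member at 106.7 ± 7.29 FPKM (SD, n = 3), followed by Max (29.1), Mxi1 (22.3), Mlx (12.3), Mxd4 (11.8), Mnt (11.6), Mxd3 (3.31), Mycl (2.89) and Mxd1 (2.24), with Mycn listed at 0. The libraries' ranges of Mlx, Mxd4 and Mnt overlapped, as did those of Mxd3 with Mycl and with Mxd1, so their order is not fixed. In KO, Mxd4 led at 46.1 ± 0.85 FPKM, followed by Max (37.2), Mxi1 (20.3), Mnt (14.6), Myc (11.3), Mlx (7.63), Mxd1 (4.20), Mxd3 (2.85), Mycl (0.57) and Mycn (0.0356). There only the ranges of Mxi1 and Mnt overlapped. Myc went from the first place to the fifth. Mxd4, whose WT range overlapped those of Mlx and Mnt, went to the first. When CPM were divided by the annotated exon length instead, Myc again led in WT and Mxd4 in KO, while Mnt stood in place 3 in both groups.

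The summed FPKM of Myc, Mycn and Mycl was 117.2, 102.7 and 108.9 in the WT libraries and 13.5, 11.03 and 11.2 in the KO libraries. That of Mxd1, Mxd3, Mxd4, Mxi1 and Mnt was 52.6, 48.1 and 53.1 in WT and 89.5, 91.8 and 83.02 in KO. The ratio of activator to repressor transcript was therefore above 2 in every WT library (mean 2.14 ± 0.09 SD) and below 0.2 in every KO library (mean 0.135 ± 0.0153 SD). These sums are given with no test, since the members were chosen with earlier results known. Within the repressors, Mxd4 made up 23.2% ± 4.12 (SD, n = 3) in WT and 52.5% ± 3.19 in KO. The share of Mxi1 was 43.3% ± 3.94 in WT and 22.9% ± 4.30 in KO. These shares depend on the length used. With CPM per exon length, Mxd4 made up 18.2% in WT and 45.4% in KO, and Mxi1 28.4% and 15.2%. Mnt then had the largest share in WT, 41.1%, beside 22.7% from FPKM. Myc transcript stood at 3.68 ± 0.22 times that of Max in WT and at 0.306 ± 0.038 times in KO. The activators and repressors summed here, which leave out the further Max partner Mga, stood together at 5.54 ± 0.34 and 2.71 ± 0.22 times. These are ratios of transcripts, and protein was not measured.

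**Figure D3:**
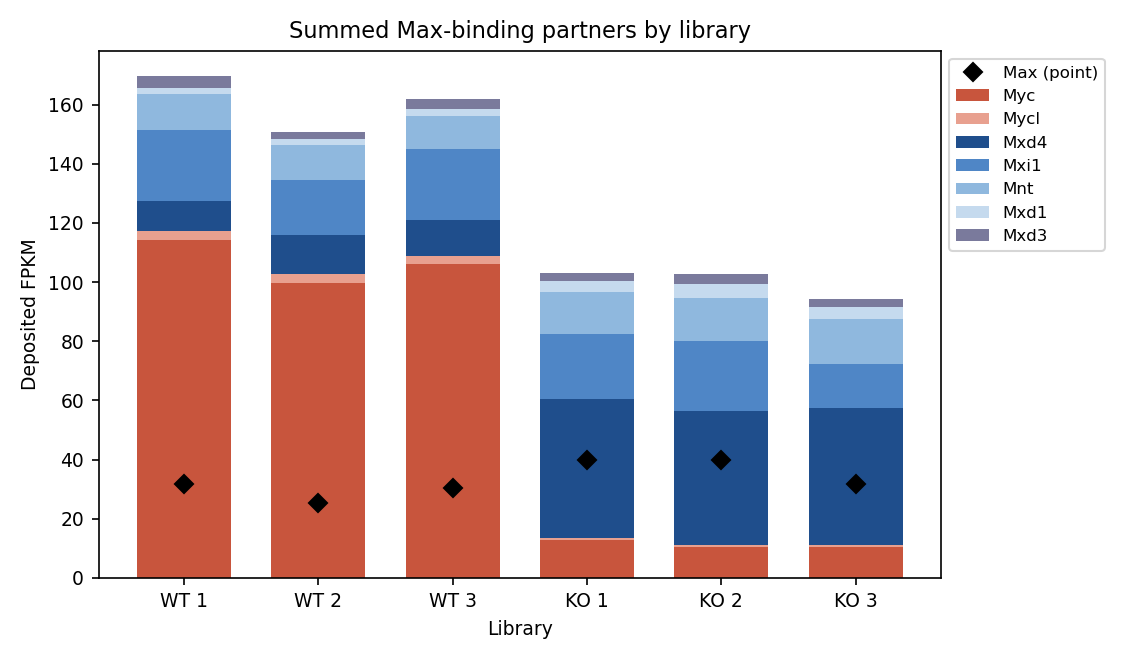
Deposited FPKM of the Max-binding members, stacked per library, with Max as a point; Myc and Mycl are in red tones and the repressors in blue and grey. Mycn, at most 0.0425 FPKM, is not drawn. The stack is mostly Myc in WT and mostly Mxd4, Mxi1 and Mnt in KO, and the Max point changes less than the stack.

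The other genes of the Mondo arm and the network's largest member were described next. Mga, a Max partner that also carries a T-box domain, averaged 112 ± 18.1 CPM in the WT and 85.5 ± 18.3 CPM in the KO libraries and was not called (edgeR adjusted p = 0.112). Mlxip (MondoA) rose 1.41-fold, from 50.6 ± 3.99 to 71.5 ± 7.22 CPM. Mlxipl (ChREBP) was under 0.1 CPM in each WT library and at 0.170, 1.20 and 0.356 CPM in KO. It was removed by the low-count filter. Of 5 targets of Mondo and Mlx, 4 were tested, of which 2 were higher, 1 was lower and 1 did not pass (35.1% higher and 34.2% lower over all tested genes). The paralogous arrestin genes Txnip and Arrdc4, the best-known MondoA targets, went in opposite directions. Txnip, which limits glucose uptake, was at 816, 984 and 883 CPM in WT and at 160.5, 158 and 127 CPM in KO (edgeR log2 fold change -2.59 ± 0.11 SE, adjusted p = 5.97e-07). Arrdc4 was at 28.1, 36.0 and 30.1 CPM in WT and at 120.3, 119 and 115 CPM in KO (edgeR log2 fold change 1.91 ± 0.09 SE, adjusted p = 3.63e-07). Neither pair of groups overlapped. Tkfc, a fructose-pathway kinase, rose 3.11-fold. Khk, fructokinase, averaged 14.4 CPM in the WT and 17.4 CPM in the KO libraries and was not called (edgeR adjusted p = 0.0869). Pklr, a liver pyruvate kinase, had 0 counts in all libraries.

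Genes known as activated by Myc were mostly lower in KO. Of 46 listed and tested, 42 were lower, 1 was higher and 3 did not pass, beside 34.2% lower over all tested genes, and the list's median log2 fold change was -1.67 beside 0.03. All 22 genes of the nucleolus and ribosome assembly were lower (median -1.91), as were all 8 of polyamine, nucleotide and folate metabolism (median -2.23) and all 5 of mitochondrial chaperones, prohibitins and peroxiredoxin (median -1.11). The list was chosen with earlier results of these data known, and this grouping by role was made after the values had been seen. Ncl, nucleolin, fell from 1957 ± 98.9 to 513 ± 34.9 CPM, and Npm1, nucleophosmin, from 1065 ± 112 to 673 ± 26.8 CPM. The box C/D particle protein Nop56 fell 9.86-fold, the nucleolar phosphoprotein Nolc1 10.1-fold and the RNA helicase Ddx21 5.33-fold. Ptma, prothymosin, fell 1.28-fold. Outside the rule for named genes, the 4 exceptions were examined: Ldha, Cdk4 and Ccnd2 did not pass (log2 fold changes 0.10, -0.11 and -0.05), and Tert, the telomerase subunit, was higher (0.67 CPM in WT, 2.12 CPM in KO).

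Promoter entries were matched for 40 of these 46 genes, and 11 (27.5%) held CACGTG, beside 11.1% of tested genes and 8.09% of all genes with an entry. Of the 11 genes with the motif 9 were lower and 2 did not pass (median log2 fold change -1.35). Of the 29 without it 28 were lower and 1 higher (median -1.76). Windows of 30 bases are shown for 2 genes that fell and the 2 with the motif that did not pass, with the E-box in capitals.
Nme1, chr11:93968273-93968302, minus strand: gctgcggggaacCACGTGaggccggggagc
Hspd1, chr1:55088306-55088335, minus strand: ggccggctgggaCACGTGaaaaggccgcgc
Cdk4, chr10:127063405-127063434, plus strand: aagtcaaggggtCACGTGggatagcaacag
Ldha, chr7:46845744-46845773, plus strand: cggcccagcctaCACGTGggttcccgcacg
Nme1, a nucleoside diphosphate kinase, had a log2 fold change of -2.46 and Hspd1, the mitochondrial chaperone, of -1.67. Cdk4, a G1 kinase, held 4 copies and Ldha, lactate dehydrogenase, 2. The 2 listed genes that did not pass and had an entry held the letters, as did 9 of those that fell. With only 2 such genes, the presence of the letters cannot be compared between genes that fell and genes that did not pass. Letters farther than 250 bases before or 50 bases after the start were not looked for.

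Genes known as repressed by Myc went in both directions. Of 13 tested, 8 were higher, 3 lower and 2 did not pass (median log2 fold change 0.67), beside 35.1% higher and 34.2% lower over all tested genes. Cdkn1a, the cell cycle inhibitor p21, rose 7.03-fold from 51.9 ± 1.86 to 364 ± 6.68 CPM, the growth factor receptor gene Pdgfrb 6.53-fold and the matricellular gene Thbs1 23.8-fold. Gas1 had 0 counts in WT and reached 837 ± 17.5 CPM in KO. The 3 that fell, Gadd45a, Ndrg1 and Cdkn2b (log2 fold changes -2.09, -1.31 and -1.01), lie outside the rule for named genes and were picked with their values known. Pdgfrb and Thbs1 are also expressed by fibroblasts, whose summed markers were higher in the same KO libraries (10678 to 11556 CPM beside 992 to 1136 CPM in WT), and the part of such cells was not tested.

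**Figure D4:**
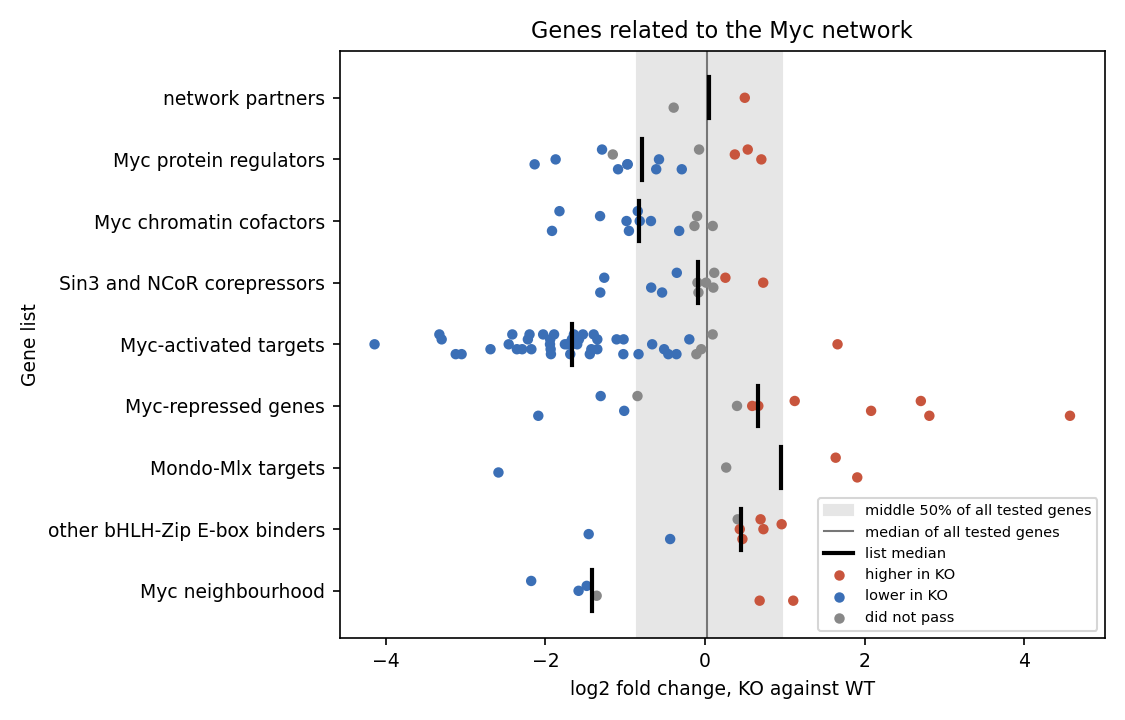
Log2 fold change of KO against WT for the tested genes of each related list; each point is a gene coloured by its call, the black bar is the list median, and the grey band runs from the lower to the upper quartile of all tested genes (-0.85 to 0.96). Gas1, at 0 counts in WT, is not drawn. The activated targets lie mostly left of the band, with a median of -1.67.

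Of 14 tested regulators of the Myc protein, 9 were lower, 3 higher and 2 did not pass, beside 34.2% lower and 35.1% higher over all tested genes (median log2 fold change -0.79, beside 0.03). They include genes that stabilise and genes that degrade Myc. The ubiquitin ligase subunit Skp2 fell 3.66-fold, the nucleolar deubiquitinase Usp36 4.39-fold, Otub1 1.96-fold and the ligase Huwe1 1.53-fold, from 1053 ± 13.4 to 689 ± 30.3 CPM. Bin1, a Myc-binding adaptor, rose 1.63-fold and the large ligase Mycbp2 1.45-fold.

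Of 12 chromatin cofactors of Myc, 9 were lower, 0 higher and 3 did not pass by edgeR, where 34.2% of all tested genes were lower and 35.1% higher (median log2 fold change -0.83, beside 0.03). None of the 14 alternatives, which include DESeq2 and limma-voom, called any of them higher, and 0 rose at an unadjusted p of 0.05 in the edgeR fit. Smarcb1 alone had a log2 fold change above 0 (0.10, edgeR adjusted p = 0.245). Wdr5, a histone methyltransferase subunit that anchors Myc on chromatin, fell 3.78-fold, the helicase Ruvbl2 3.54-fold and the acetyltransferase Kat2a 2.49-fold. Trrap, the scaffold of Myc-bound acetyltransferases, averaged 314 ± 12.3 CPM in the WT and 293 ± 14.8 CPM in the KO libraries and was not called (edgeR adjusted p = 0.118), nor did Hcfc1 (211 and 192 CPM, adjusted p = 0.0820).

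The corepressors used by the Mxd proteins and Mnt showed no common direction. Of 12 tested Sin3 and NCoR genes, 2 were higher, 5 lower and 5 did not pass (median log2 fold change -0.09, beside 0.03). The background was 35.1% higher and 34.2% lower, with 69.3% called, so the list's 7 calls of 12 are a smaller share than the background. The histone-binding subunits Rbbp4 and Rbbp7 fell 2.40-fold and 2.48-fold. Ncor1 averaged 251 ± 9.60 CPM in the WT and 272 ± 9.29 CPM in the KO libraries and was not called (edgeR adjusted p = 0.0541). The sign of this difference turned with scaling by total counts (edgeR log2 fold change -0.01). The Sin3 scaffold genes themselves lie outside the rule: Sin3b was at 106 and 127 CPM (higher, edgeR adjusted p = 0.00528) and Sin3a at 66.3 and 71.2 CPM (edgeR adjusted p = 0.126).

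Of 8 tested E-box-binding factors of the same structural class outside the network, 5 were higher, 2 lower and 1 did not pass, beside 35.1% higher and 34.2% lower over all tested genes. Tfe3, a lysosome and nutrient regulator, rose 1.95-fold and Srebf1, a lipid synthesis regulator, 1.66-fold. Srebf2 did not pass (129 ± 26.1 and 171 ± 30.8 CPM, edgeR adjusted p = 0.0927). Tfap4, which is also known as a Myc target, fell 2.75-fold.

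Genes near Myc on chromosome 15 were read as a check on the region. Pvt1, the long noncoding RNA gene beside Myc, was at 65.4, 61.8 and 64.2 CPM in WT and at 24.99, 23.5 and 19.99 CPM in KO, with no overlap (2.79-fold lower, edgeR log2 fold change -1.48 ± 0.09 SE, adjusted p = 1.45e-06). Fam84b fell 4.53-fold and Fam49b 3.00-fold, while Asap1 rose 2.15-fold. Of 6 tested neighbours 3 were lower, 2 higher and 1 did not pass, beside 34.2% lower and 35.1% higher over all tested genes.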

How the data were processed

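For each Ensembl gene, raw counts and FPKM were deposited by the authors for 3 KO and 3 WT libraries, per the file headers. Sample titles gave each library's group and number. The submitters' processing notes list CASAVA 1.8, HISAT2, SAMtools 1.3.1, edgeR and build GRCm39. How reads were counted, with which strand setting and annotation, and the length model behind the FPKM are not stated in these notes. Symbols were matched by Ensembl ID for 98.23% of 56393 genes in GENCODE M21 (build GRCm38), which also gave exon lengths and overlapping genes. Library totals were 56529170 to 61670083 counts. Within each group, any pair of replicates varied beyond counting noise (chi-square over degrees of freedom from 22.6 to 34.8).

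After filterByExpr (18732 genes kept) and TMM scaling, counts were compared with glmQLFTest (robust) of edgeR 4.0.16 under R 4.3.3, with Benjamini-Hochberg adjustment over all tested genes at 0.05. Alternatives were DESeq2 size factors, total counts, limma-voom (limma 3.58.1), DESeq2 1.42.0 with its Wald test, no filter, a filter of 1 CPM in 3 libraries, limma on log2(FPKM + 0.1), a replicate block, and each library left out in turn. Counts were simulated for 18732 genes of the KO against WT comparison, with 50 genes changed per fold size. Of the 1.5-fold changes 46% were recovered, of the 2-fold 72%, of the 4-fold 94% and of the 8-fold 100%. The changed genes were drawn from those above 1 CPM in WT, and all other genes were left unchanged. In the real comparison 69.3% of tested genes were called, so these rates do not give its recovery. Promoter entries came from RefSeq (build GRCm38.p6).

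The members and all lists were chosen with earlier results of these data known, and no set test was run. All 10 members are named. Of each related list, the rule named the 3 tested genes with the highest mean CPM, the 3 called genes with the smallest adjusted p, and all network partners and Mondo targets. The results of 2 genes that the rule named are not reported here.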

Additional observations from a re-analysis of the deposited data

How the results depend on the processing

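Myc, Mycl, Mxd1, Mxd4 and Mnt kept their direction and their call in all 14 alternatives, with log2 fold changes of -3.28 to -3.09, -2.38 to -2.13, 0.87 to 1.05, 1.96 to 2.26 and 0.30 to 0.46. The calls of Max and Mlx were lost when single libraries were left out, with log2 fold changes over the libraries left out of 0.34 to 0.55 for Max and -0.59 to -0.31 for Mlx. The replicate numbers did not pair the libraries (correlations of the same-numbered deviations -0.0237, 0.018 and -0.00904), and not every library correlated best with its own number. With the replicate block 6214 genes were higher and 6019 lower, beside 6578 and 6402 without it, and Mlx was not called (log2 fold change -0.46, edgeR adjusted p = 0.0524). The sign of Mxi1 turned with the filter of 1 CPM (0.0038), and over the libraries left out Mxi1 ranged from -0.14 to 0.17 and Mxd3 from -0.34 to 0.047, with no call. The sign of Ncor1 turned with scaling by total counts (-0.014). Of Mga, Mlxip and Mlxipl, 2 were higher without a filter on low counts, and 1 to 2 over the libraries left out. There 1 was lower with scaling by total counts, with the DESeq2 Wald test and with limma on FPKM, beside 0. Of the corepressors 1 was higher with scaling by total counts, beside 2. Of the Myc-activated targets 2 were higher with limma-voom and with the filter of 1 CPM, and 1 to 2 over the libraries left out, beside 1. With CPM per exon length, the ratio of activators to repressors was 2.68 in WT and 0.169 in KO, beside 2.14 and 0.135 from FPKM, and over the libraries left out it was 2.09 to 2.18 and 0.128 to 0.143. Of 40 named related genes, 34 kept direction and side of the threshold in every alternative. In each case the cause was not tested, except that fewer libraries or genes entered by construction. Depth limits Mycn (0 to 9 counts per library) and Mlxipl (0 to 66), which did not pass the filter on low counts.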
